A study of Mus musculus with 24 samples.

Results

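The 34 genes described here mark T lymphocytes and natural killer (NK) cells. They were a fixed list of gene names, looked up among the gene names of the array. This list and the further lists below were chosen with earlier results of these data known. Their counts set against all genes are therefore no independent test. The 34 genes are carried by 55 of the 56605 probes and stand among 37008 distinct gene names. They were ordered by role: 7 genes of the T cell receptor complex and its co-receptors, 6 of T cell surface and signalling, 4 of naive T cells, 4 checkpoint, costimulation and regulatory genes, 6 cytotoxic effectors and chemokines, and 7 NK receptors and cytotoxic transcription factors. RNA of male Erfe-/- mice was taken from the liver and the bone marrow, and each of the 24 samples was put on its own single-colour Agilent array. In each tissue 4 samples were labelled control at 0 h, 4 were taken 24 h after phlebotomy by retro-orbital puncture, and 4 at 48 h. Every group lacked erythroferrone, the hormone that erythroblasts release after blood loss, so no change below can be set against mice that have it. The labels do not say whether the liver and the marrow of a number came from the same mouse, nor name the mouse behind each replicate, so p-values measure the spread between these samples only.

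T cells recognise antigen through a receptor that signals by the CD3 chains and the kinase Lck, with CD4 or CD8 as co-receptor. Naive T cells keep the transcription factors Tcf7 and Lef1 and enter lymphoid tissue by the chemokine receptor Ccr7, activated cells put up checkpoint receptors such as Pdcd1 (PD-1) and Ctla4, and cytotoxic T cells and NK cells kill with perforin and granzymes. Bone marrow holds recirculating naive T cells, memory T cells and maturing NK cells beside B cells and blood precursors, and the liver is rich in resident NK and innate-like T cells. In whole tissue, fewer cells of a type and less RNA per cell cannot be told apart.

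There were 6 members that passed the test in marrow at 24 h, and the RefSeq promoter table (GRCm38.p6) holds 4 of them, so the 250 bases before their start sites are shown as the regulatory sequence of genes that were lower together. Capitals mark the TCF/LEF core CTTTG and the RUNX core TGTGG on either strand, the motifs of factor families that T cells use. Cd3d lies at chr9:44981536-44981785, Cd8a at chr6:71373177-71373426 and Dapl1 at chr2:59484403-59484652, all on the plus strand, and Pdcd1 at chr1:94052554-94052803 on the minus strand.
Cd3d: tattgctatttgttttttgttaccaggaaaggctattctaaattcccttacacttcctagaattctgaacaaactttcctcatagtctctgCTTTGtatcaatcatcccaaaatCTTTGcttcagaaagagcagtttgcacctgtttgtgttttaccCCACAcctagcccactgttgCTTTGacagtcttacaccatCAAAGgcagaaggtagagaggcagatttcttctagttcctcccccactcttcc
Cd8a: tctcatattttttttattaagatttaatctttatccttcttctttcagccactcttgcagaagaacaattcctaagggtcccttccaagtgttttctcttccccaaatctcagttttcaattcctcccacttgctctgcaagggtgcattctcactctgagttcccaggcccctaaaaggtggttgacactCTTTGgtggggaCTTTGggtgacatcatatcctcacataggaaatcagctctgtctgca
Dapl1: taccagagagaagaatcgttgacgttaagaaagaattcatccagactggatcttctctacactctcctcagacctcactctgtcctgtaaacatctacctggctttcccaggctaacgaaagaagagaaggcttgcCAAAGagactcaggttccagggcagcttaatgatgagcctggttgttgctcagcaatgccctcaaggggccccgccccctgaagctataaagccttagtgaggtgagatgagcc
Pdcd1: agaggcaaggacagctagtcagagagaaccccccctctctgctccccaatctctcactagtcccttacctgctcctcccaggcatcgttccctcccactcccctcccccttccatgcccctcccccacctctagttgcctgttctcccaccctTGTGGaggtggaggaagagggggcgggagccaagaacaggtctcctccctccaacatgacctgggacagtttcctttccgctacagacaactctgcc
The Cd3d window held 4 TCF/LEF cores and 1 RUNX core, the Cd8a window 2 TCF/LEF cores, the Dapl1 window 1 TCF/LEF core and the Pdcd1 window 1 RUNX core. The capitals do not overlap between the motifs. Of all 32851 promoter windows of this length, 48.6% held the TCF/LEF core and 49.3% the RUNX core, so a match is common. The table holds 24 of the 34 members, 70.6%, and of these 11 held the TCF/LEF core and 19 the RUNX core. The other members have no sequence here, and whether the members differ from other genes was not tested.

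Levels are log2 processed signal with each array's 75th percentile set to 0, and a change is the difference of group means from limma, ± its standard error. That percentile lay at 715 to 955 intensity units on marrow arrays and 361 to 473 on liver arrays. One library stands apart: on marrow 24 h replicate 2, 15 hepatocyte genes such as albumin reached a median of 12.7% of their mean liver level, against 0.0020% to 0.025% on the other 11 marrow arrays. For marrow comparisons with 24 h, the counts of members called and of fitted direction, and the member values it moves most, are therefore given with and without it. Counts of separate groups, of unadjusted p-values, within slides and of probes, and the median changes by role, are given with it only. All 15 hepatocyte markers were above background on every liver array and all 9 erythroid markers on every marrow array. The 2 Erfe probes were well above background on 1 and 0 of the 12 marrow arrays and on 0 of the 12 liver arrays. The arrays lie on 3 slides that each hold several groups, and within-slide changes are given beside the main results, for slides 1 to 3 in order. A slide holds only 1 or 2 arrays of a tissue and time. On slide 2 the only marrow array at 24 h is the mixed one. In marrow 33 members were bright enough to be tested, and 32 of the 34 were well above background on all 12 marrow arrays. Ctla4 was not tested there. In liver 27 were tested, without Cd8a, Dapl1, Pdcd1, Ctla4, Foxp3, Ncr1 and Eomes.

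In marrow 24 h after phlebotomy, some of the T cell genes fell, among them naive T cell genes and both chains of the CD8 co-receptor. Of the 33 tested members 6 fell (limma, Benjamini-Hochberg adjusted p under 0.05): Cd8b1, Cd8a, Cd3d, Ccr7, Dapl1 and Pdcd1. Of all 21399 genes tested in marrow, 0.463% were called lower. No member was called higher, and the fitted change was below 0 for all 33, with a median of -0.52 against -0.023 over all genes. In 18 members the 4 arrays at 24 h lay wholly below the 4 at 0 h, which was so for 4.13% of all genes.

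**Figure D1:**
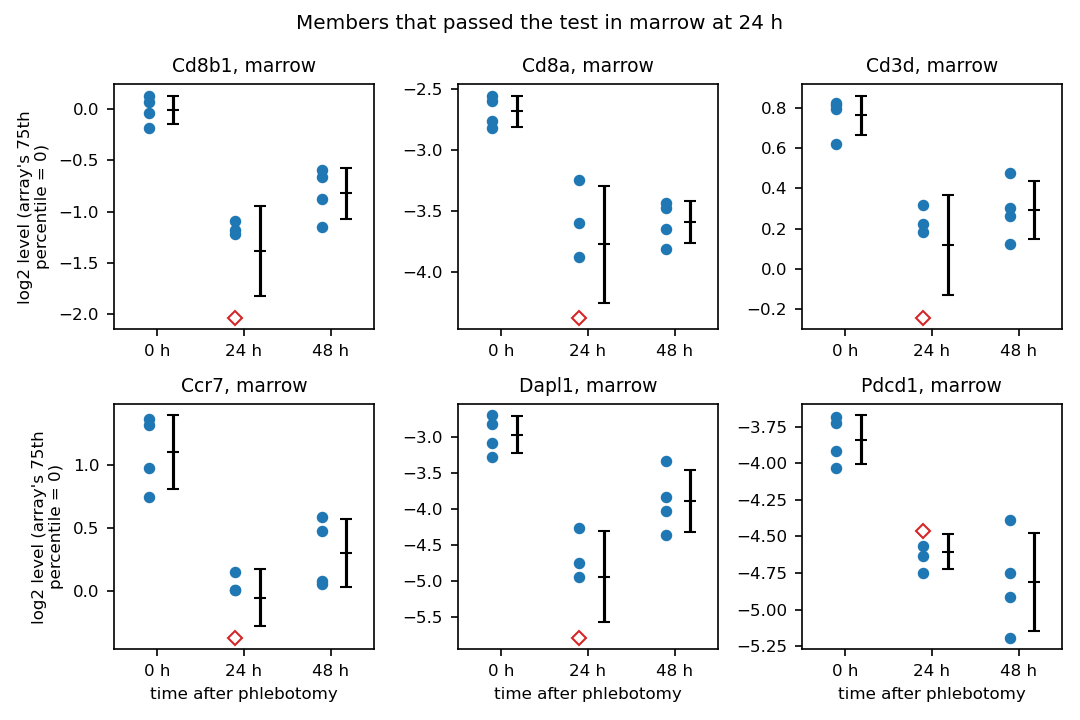
Levels of the 6 members that passed the test in marrow at 24 h, as log2 signal relative to each array's 75th percentile, at 0, 24 and 48 h after phlebotomy. Points are single arrays (4 per time), the open red diamond is marrow 24 h replicate 2, and bars are the mean ± SD. In every panel the 24 h and 48 h points lie below all 0 h points.

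Cd8b1 and Cd8a encode the beta and alpha chains of CD8, the co-receptor of cytotoxic T cells. Cd8b1 (replicates 1 to 4 in order, as in all such lists here) measured -0.18, 0.065, -0.040 and 0.13 at 0 h, -1.21, -2.04, -1.18 and -1.09 at 24 h and -0.88, -1.15, -0.60 and -0.66 at 48 h. The times did not overlap with 0 h, and the lowest array was the one with liver transcripts. Its change at 24 h was -1.38 ± 0.20, 2.60-fold lower, adjusted p = 0.00838, and without that array -1.16, adjusted p = 0.00434. Within the 3 slides the change was -1.16, -2.00 and -1.27. Cd8a measured -2.83, -2.60, -2.76 and -2.56 at 0 h, -3.25, -4.38, -3.60 and -3.88 at 24 h and -3.81, -3.65, -3.48 and -3.44 at 48 h, again with no overlap with 0 h at either time. Its change at 24 h was -1.09 ± 0.20 (limma adjusted p = 0.0254; -0.89 without the mixed array), and within slides -0.54, -1.62 and -1.18.

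Cd3d, a chain of the CD3 signalling complex, measured 0.81, 0.62, 0.80 and 0.83 at 0 h, 0.22, -0.25, 0.32 and 0.18 at 24 h and 0.26, 0.12, 0.48 and 0.30 at 48 h in marrow. All later arrays were below all 0 h arrays, and the change at 24 h was -0.64 ± 0.12 (limma adjusted p = 0.0353, -0.52 without the mixed array). Cd3g, the gamma chain, had a change of -0.81 ± 0.20 at 24 h with no overlap of the groups, and did not pass (limma adjusted p = 0.0872). The other members of the receptor group that did not pass were Cd3e at -0.22, the zeta chain gene Cd247 at -0.45 and Cd4 at -0.061. Without the mixed array Cd3e had -0.082 and Cd247 -0.26, and dimmer Cd247 probes are described below. The brightest Cd4 probe measured 0.93, 1.56, 1.03 and 0.94 at 24 h, and its high array, replicate 2, is the one with liver transcripts. That probe was brighter in liver than in marrow, as described below, and without that array its change was -0.21. Of the receptor group 3 of 7 fell, with a median change of -0.64.

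Naive T cell genes had the largest median change at 24 h, -1.02, and 2 of 4 fell. B cell markers were lower at 24 h as well, as described below, and their part in these changes was not tested. Ccr7, the receptor that draws naive lymphocytes to lymphoid tissue, measured 0.75, 1.31, 0.97 and 1.36 at 0 h, 0.0046, -0.37, 0.0054 and 0.15 at 24 h and 0.58, 0.076, 0.059 and 0.47 at 48 h. No later array reached the 0 h range, and the change at 24 h was -1.15 ± 0.17, 2.22-fold lower (limma adjusted p = 0.0118, -1.04 without the mixed array). Within slides it was -1.02, -1.34 and -1.28, and the other Ccr7 probe had a change of -1.22.

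Dapl1, a gene found in naive and early differentiated T cells, had the largest change of any member and was above background on 11 of 12 arrays. Its levels were -3.28, -2.70, -3.08 and -2.83 at 0 h, -4.95, -5.80, -4.27 and -4.76 at 24 h and -3.84, -4.37, -4.03 and -3.34 at 48 h. The 24 h arrays lay lowest and the 48 h arrays between them and 0 h, apart from 1 overlap between 24 h and 48 h. The change at 24 h was -1.97 ± 0.30, 3.92-fold lower (limma adjusted p = 0.0118, -1.69 without the mixed array). With normexp background correction the Dapl1 change was -0.97, and with the authors' values -1.14, both passing. The transcription factors Tcf7 and Lef1 had changes of -0.90 ± 0.26 and -0.65 ± 0.23 and did not pass (limma adjusted p = 0.148 and 0.250). The groups were separate for Tcf7 and overlapped for Lef1.

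Among the checkpoint, costimulation and regulatory genes 1 of 3 tested fell, with a median of -0.76. Pdcd1, the inhibitory receptor PD-1, measured -3.72, -3.68, -3.92 and -4.03 at 0 h, -4.63, -4.46, -4.75 and -4.56 at 24 h and -4.75, -5.19, -4.39 and -4.91 at 48 h. Both later times lay below 0 h without overlap, and the array with liver transcripts was the highest at 24 h here. The change was -0.76 ± 0.15 at 24 h (limma adjusted p = 0.0428), with -0.93, -0.55 and -0.62 within slides. Without the mixed array it was -0.81 and no longer passed (limma adjusted p = 0.0691). With normexp it was -0.35 and with the authors' values -0.36, neither passing. Icos, an inducible costimulatory receptor of activated and follicular helper T cells, had a change of -1.09 ± 0.28 with separate groups (limma adjusted p = 0.105). Foxp3, the factor of regulatory T cells, had -0.29 with overlapping groups, and -0.13 without the mixed array.

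None of the 6 T cell surface and signalling genes passed at 24 h, although 4 had separate groups and the median was -0.57. Cd2, an adhesion receptor that mouse B cells also carry, came nearest. It measured 0.97, 1.44, 1.18 and 1.43 at 0 h, 0.62, 0.11, 0.39 and 0.62 at 24 h and 1.19, 0.53, 0.58 and 0.75 at 48 h, so that 24 h lay below 0 h and 48 h overlapped both. Its change at 24 h was -0.82 ± 0.17 (limma adjusted p = 0.0509). Cd5, Cd6, Lck and the costimulatory receptor gene Cd28 had changes of -0.79, -0.63, -0.52 and -0.43. Lat, an adaptor that mast cells and megakaryocytes use too, had -0.048 with the mixed array and 0.0087 without it, so its direction turned.

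Cytotoxic genes had the smallest median change, -0.35 at 24 h, and 0 of 6 passed. Gzma, which encodes granzyme A, measured 1.83, 1.62, 1.96 and 1.94 at 0 h, 0.88, 0.64, 1.48 and 1.78 at 24 h and 1.48, 1.26, 1.89 and 1.42 at 48 h. Of its 24 h arrays 2 were well below the rest and 1 lay inside the 0 h range. The change was -0.64 ± 0.23 (limma adjusted p = 0.265). Ccl5, a chemokine of memory T and NK cells, had -0.46 with separate groups. Xcl1, the perforin gene Prf1, Gzmb and Nkg7, a granule membrane protein gene, had -0.36, -0.34, -0.20 and -0.14 with overlapping groups. Without the mixed array Gzmb had -0.11 and Nkg7 -0.038.

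NK receptors and cytotoxic transcription factors had a median change of -0.44, and 0 of 7 passed. Eomes, a T-box factor of mature NK cells and memory T cells, measured -2.42, -2.64, -2.86 and -2.52 at 0 h, -3.53, -3.78, -3.23 and -3.06 at 24 h and -2.77, -3.38, -2.93 and -3.04 at 48 h. The 24 h arrays lay below the 0 h arrays, and the change of -0.79 ± 0.17 did not pass (limma adjusted p = 0.0598). Separate groups were also seen for the receptor gene Klrd1 at -0.60, Il2rb, which encodes a chain shared by the interleukin-2 and interleukin-15 receptors, at -0.44, and the T-box factor gene Tbx21 at -0.48. Klrk1 at -0.36, Klrb1c, the gene of the NK1.1 antigen, at -0.25 and Ncr1 at -0.25 overlapped with 0 h, and Klrb1c had -0.065 without the mixed array.

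These 24 h calls leaned on single arrays. The count of 6 became 1 without marrow 0 h replicate 2, when Cd8b1 alone passed. It became 3 without 0 h replicate 3, 0 h replicate 4 or 24 h replicate 4, and 5 without the mixed 24 h replicate 2, with a median change of -0.41 and 32 of 33 members below 0. Over all alternatives run 31 to 34 of the 32 to 34 members tested had a fitted change below 0. Of the 33 members 30, 31 and 30 were lower at 24 h within slides 1, 2 and 3. On slide 2 this sets the mixed array alone against 1 array at 0 h. All 43 tested probes of the members were lower on average.

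At 48 h in marrow 1 of 33 members fell, Pdcd1, by 0.97 ± 0.15 (limma adjusted p = 0.0117), against 0.173% of all genes called lower. Its change within slides was -1.05, -0.87 and -0.88. With normexp background correction it was -0.36 and did not pass (limma adjusted p = 0.0655), and with the authors' values it was -0.51 and passed (limma adjusted p = 0.0291). The fitted change was below 0 for 31 of 33 members, with a median of -0.35 against 0.0012 over all genes, and 13 members had separate, lower groups, which 4.69% of all genes had. Xcl1 at 0.11 and Lat at 0.063 were the exceptions. Cd8a at -0.91, Ccr7 at -0.80 and Cd8b1 at -0.81 did not pass (limma adjusted p = 0.0552, 0.0541 and 0.0783). Without the mixed 24 h array, which enters this comparison only through the shared spread, 5 members passed: Cd8b1, Cd8a, Cd3d, Ccr7 and Pdcd1. Without marrow 24 h replicate 1 the count was 2.

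**Figure D2:**
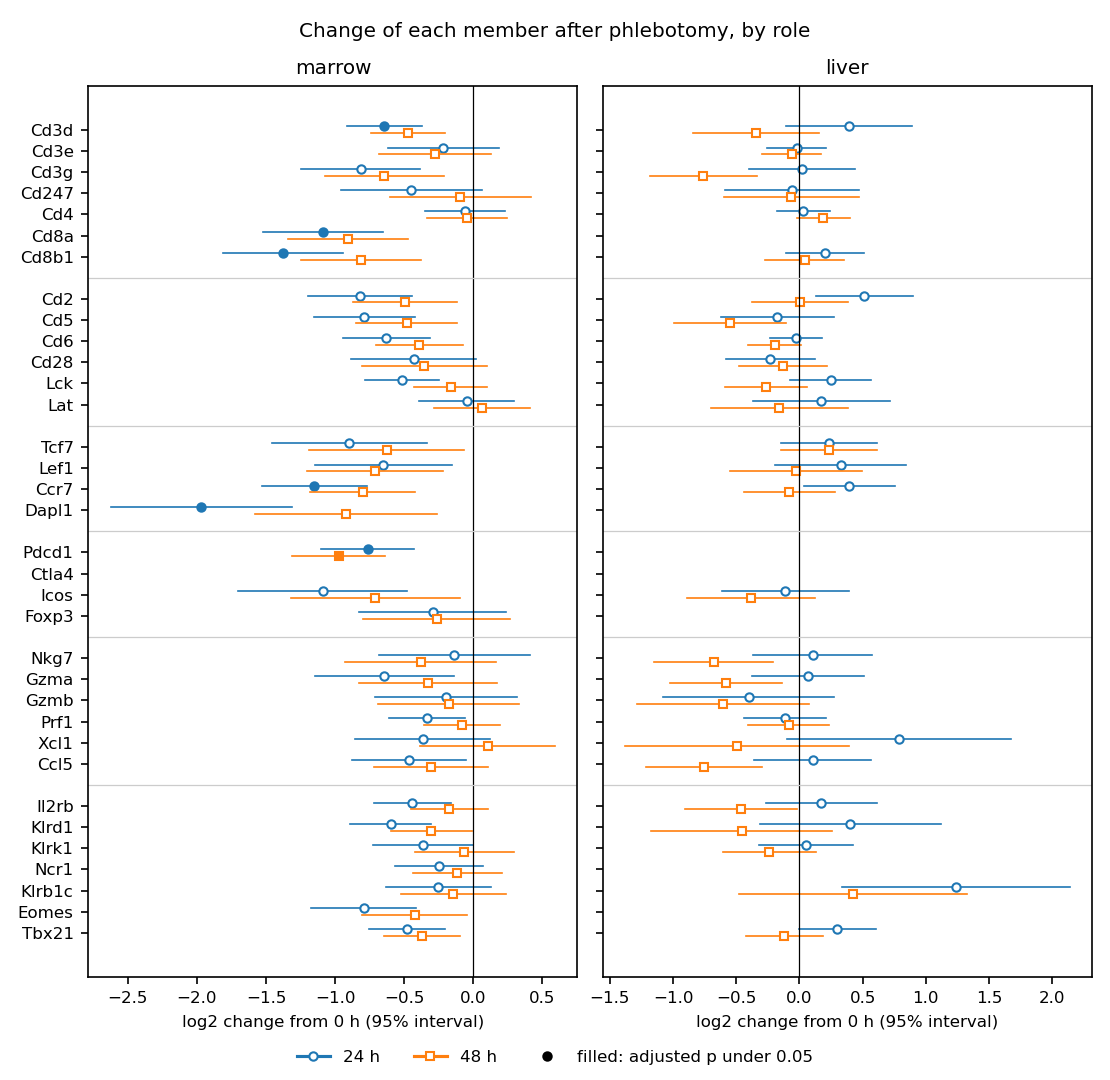
Change of each member from 0 h at 24 h (blue circles) and 48 h (orange squares), in marrow on the left and liver on the right, on a log2 scale with 95% confidence intervals from limma. Genes are grouped by role, filled symbols mark an adjusted p under 0.05, and members not tested have no symbol. In marrow the circles lie left of 0 for all 33 members, and in liver no symbol is filled.

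Between 24 h and 48 h in marrow 29 of 33 members had a fitted change above 0, and 23 of 33 without the mixed 24 h array. The median was 0.24 with that array and 0.13 without it. With limma 0 passed either way, where 0.00467% of all genes did. At an unadjusted p under 0.05 there were 4 members, against 7.68% of all genes. The largest change was that of Dapl1, 1.05 ± 0.30 (limma adjusted p = 0.561), and 0.76 without the mixed array. Cd8a had 0.18 with that array and -0.017 without it. In 2 of 33 members, Lck and Icos, the 48 h arrays lay wholly above the 24 h arrays, against 2.8% of all genes. The fitted change from 0 h was nearer to 0 at 48 h than at 24 h in 28 of 33 members, and in 22 of 33 without the mixed array. Pdcd1 was lower at 48 h than at 24 h in fitted level, by 0.21, without passing (limma adjusted p = 0.759).

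Naive, checkpoint and cytotoxic genes were set side by side on each marrow array. Relative to the mean of the 0 h arrays, the median naive gene lay at -1.41 to -0.72 on the 24 h arrays, the median checkpoint gene at -0.91 to -0.72 and the median cytotoxic gene at -0.65 to -0.18. The naive and cytotoxic medians were lowest on the mixed array, and on the other 24 h arrays they lay at -1.06 to -0.72 and -0.36 to -0.18. On replicate 4 the naive and checkpoint medians were alike, -0.72 each. At 48 h the ranges were -1.21 to -0.44, -0.81 to -0.35 and -0.55 to 0.24, and on the 0 h arrays they lay between -0.33 and 0.25. The naive group holds 4 genes, the checkpoint group 3 and the cytotoxic group 6, and the difference between the groups was not tested. In liver the order was another: the median naive gene lay at 0.16 to 0.57 at 24 h and -0.20 to 0.16 at 48 h, and the median cytotoxic gene at -0.17 to 0.35 and -0.89 to -0.38. There the 0 h arrays themselves ranged from -0.53 to 0.32, and Icos alone stood for the checkpoint genes, at -0.58 to 0.48 and -0.83 to -0.046.

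**Figure D3:**
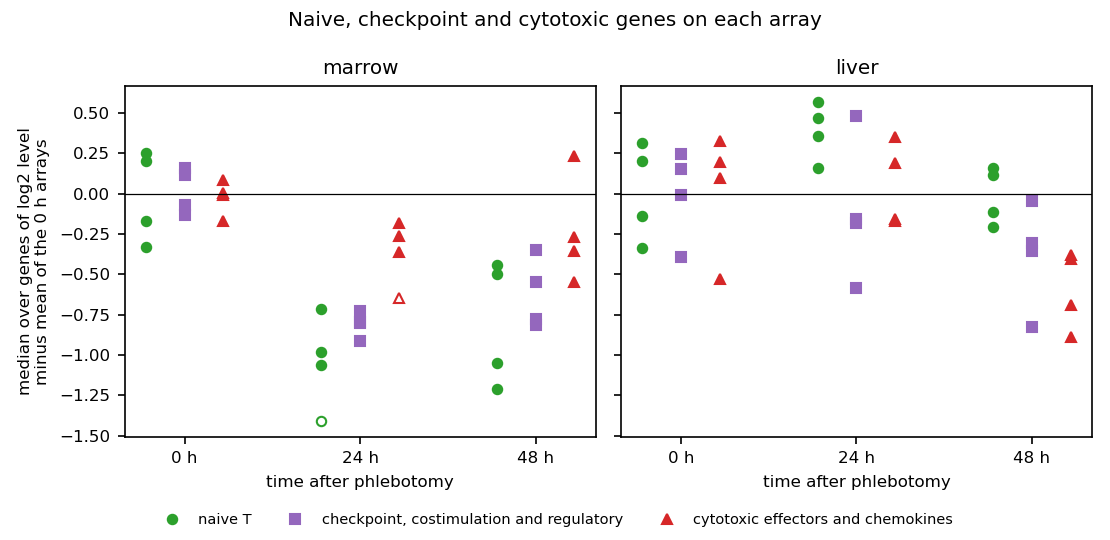
For each array, the median over the genes of a role group of the log2 level minus the mean of the 0 h arrays of that tissue, in marrow (left) and liver (right). Green circles are naive T genes, purple squares checkpoint, costimulation and regulatory genes, red triangles cytotoxic effectors and chemokines, and open symbols marrow 24 h replicate 2. In marrow the naive genes lie between -1.41 and -0.72 at 24 h and the cytotoxic genes between -0.65 and -0.18, and in liver the cytotoxic genes are lowest at 48 h.

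Other genes of the same pathways were looked at as whole lists, with the mixed array kept. These lists too were chosen with earlier results of these data known. Of 21 tested further T cell genes 3 fell in marrow at 24 h, against 0.463% of all genes called lower, and 20 had a fitted change below 0. Among those called were Skap1, an adaptor of T cell adhesion, at -0.78 and the kinase gene Txk at -0.61 (limma adjusted p = 0.0329 and 0.0143). Of 17 further checkpoint genes 2 fell at both 24 h and 48 h, against 0.463% and 0.173% of all genes called lower. They were Tox, a factor of developing and exhausted T cells, at -0.65 and -0.53, and Cd86, a costimulatory ligand of antigen-presenting cells, at -0.36 and -0.35. Of 19 further cytotoxic genes 0 passed at either time with limma, and 2 had an unadjusted p under 0.05 at each, against 12.6% of all genes at 24 h and 16% at 48 h, so this share is not above that of all genes.

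Markers of other marrow cells moved too, again with the mixed array kept. Of 11 B cell markers all had a fitted change below 0 at 24 h with a median of -0.69. Of these 2 fell, against 0.463% of all genes called lower. They were the chemokine receptor gene Cxcr5 at -1.85, which follicular helper T cells also express, and Cr2 at -1.14. The summed linear level of the 11 markers was 37.7 to 63.2 at 0 h, 26.6 to 39.0 at 24 h and 29.2 to 53.2 at 48 h. All 11 were above background on every marrow array. All 5 mast cell and basophil markers were below 0 at both times, and 3 fell at 48 h, against 0.173% of all genes called lower. The sum of these 5 markers went from 26.2 to 32.3 at 0 h to 17.2 to 24.4 at 24 h and 13.9 to 16.9 at 48 h. Erythroid markers had a summed level of 270.4 to 365 at 0 h, 252 to 347 at 24 h and 336 to 454 at 48 h. Of these 9 markers 1 rose at 24 h and 2 at 48 h, against 0.551% and 1.06% of all genes called higher. The part of these cells in the changes of the T and NK genes was not tested.

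In liver no member passed at any time with limma, and neither did any gene, 0% of the 19649 tested. At 24 h 19 of 27 members had a fitted change above 0, with a median of 0.10 against -0.021 over all genes, and 3 had an unadjusted p under 0.05, against 10.9% of all genes, a like share. Those 3 were Klrb1c, Cd2 and Ccr7. Klrb1c measured -4.53, -5.99, -4.72 and -6.16 at 0 h and -3.94, -4.43, -4.02 and -4.06 at 24 h. The groups did not overlap, but the probe was above background on no liver array at 0 h, so the 24 h level is at least 1.26-fold higher (limma adjusted p = 0.365). This probe was kept in liver only through the 24 h group, where it was high, so the filter favoured its separation and its place among the 3. Dimmer Klrb1c probes, not kept in liver, had changes of 0.64 and -0.23. Cd2 measured -2.52, -2.89, -2.56 and -2.40 at 0 h and -1.71, -2.12, -2.07 and -2.42 at 24 h, with 1 array overlapping and a change of 0.51 ± 0.17 (limma adjusted p = 0.366). Ccr7 measured -1.79, -2.44, -1.93 and -2.24 at 0 h and -1.53, -1.94, -1.38 and -1.96 at 24 h, and 2 of the 4 later arrays lay above the 0 h range. Its change was 0.39 ± 0.16 (limma adjusted p = 0.431).

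In liver at 24 h, markers of B cells and neutrophils were mostly above 0 in fitted change, none of them passing. Of 8 tested B cell markers 7 had a fitted change above 0, and the summed level of the 11 measured was 2.44 to 2.57 at 0 h, 2.75 to 4.03 at 24 h and 2.28 to 2.67 at 48 h. Of 8 tested neutrophil markers 7 were also above 0 with a median of 0.85, and the sum over the 10 measured was 3.84 to 35.8 at 0 h, 6.86 to 27.1 at 24 h and 3.76 to 13.6 at 48 h. Their part in the liver values was not tested.

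At 48 h in liver the cytotoxic genes lay lowest. Members with a fitted change below 0 numbered 22 of 27, with a median of -0.20 against -0.018 over all genes. An unadjusted p under 0.05 was reached by 6 of 27, against 6.44% of all genes, and 0 passed after adjustment with limma, as for 0% of all genes. Ccl5 measured 0.84, 0.22, 0.95 and 0.97 at 0 h, 1.32, 0.99, 0.58 and 0.50 at 24 h and -0.072, -0.27, 0.11 and 0.19 at 48 h. Its 48 h arrays lay below all others, and 1 of the 0 h arrays, replicate 2, was close to them. The change at 48 h was -0.76 ± 0.21 (limma adjusted p = 0.548), with -0.60, -1.03 and -0.78 within slides. Cd3g measured -2.73, -3.38, -2.74 and -2.54 at 0 h, -2.90, -2.69, -2.69 and -3.04 at 24 h and -3.98, -3.69, -3.51 and -3.25 at 48 h. Its 48 h arrays were lowest, with 1 overlapping 0 h, and the change was -0.76 ± 0.19 (limma adjusted p = 0.522). Nkg7, Gzma, Cd5 and Il2rb had changes of -0.68, -0.58, -0.55 and -0.46 with overlapping groups, none passing.

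Against 24 h the liver at 48 h had 23 of 27 members below 0, and the median was -0.38 against 1.9e-04 over all genes. Of the 27 members 12 had an unadjusted p under 0.05, against 7.63% of all genes, and 0 passed with limma, again as for 0% of all genes, the smallest adjusted p being 0.438. In 7 members, Ccl5, Nkg7, Xcl1, Klrd1, Il2rb, Cd3g and Ccr7, the 48 h arrays lay wholly below the 24 h arrays, which 1.93% of all genes did. Xcl1, a chemokine of NK cells and CD8 T cells, was above background on no array at 48 h and was at least 1.59-fold lower than at 24 h. Its probe was kept in liver only through the 24 h group, the brighter side here, so the filter favoured its separation. The cytotoxic group, which includes Xcl1, had a median of -0.71 and the receptor group -0.10. Icos was the one checkpoint gene tested in liver. It measured -1.76, -2.40, -1.86 and -2.02 at 0 h, -1.53, -2.19, -2.59 and -2.17 at 24 h and -2.84, -2.37, -2.06 and -2.32 at 48 h, overlapping throughout, with a change at 48 h of -0.38 ± 0.23 (limma adjusted p = 0.847).

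**Figure D4:**
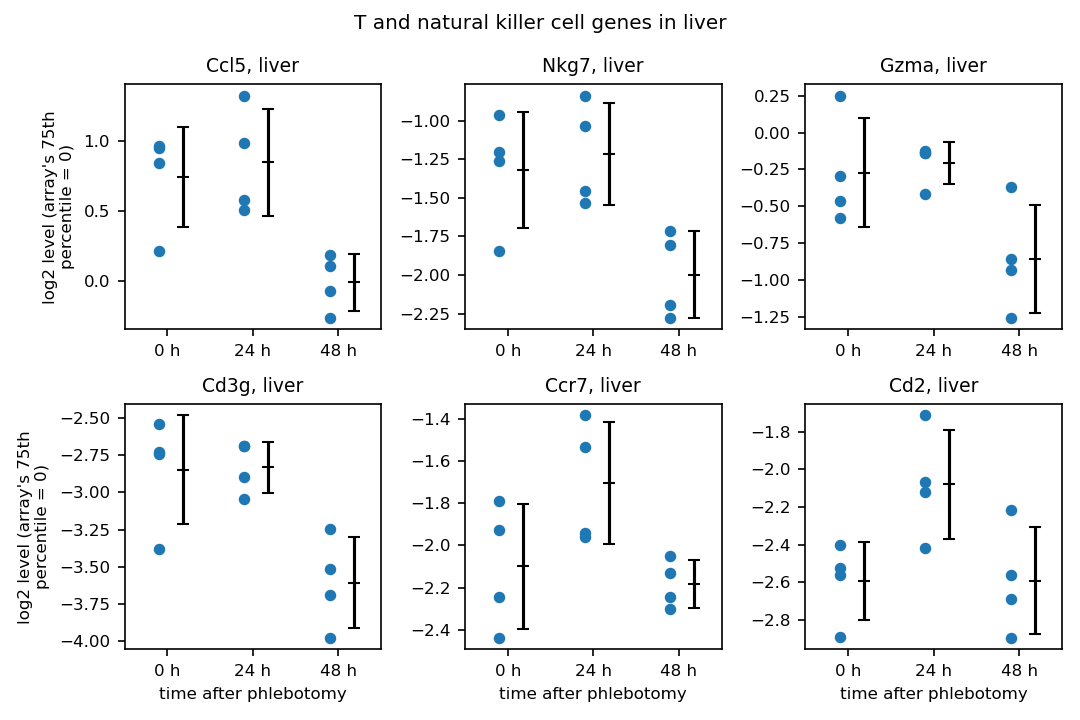
Levels of 6 members in liver at 0, 24 and 48 h after phlebotomy, as log2 signal relative to each array's 75th percentile. Points are single arrays (4 per time) and bars are the mean ± SD. All 48 h arrays lie below all others for Ccl5. For Nkg7, Cd3g and Ccr7 the 48 h points lie below all 24 h points, and no change passed the test.

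Whether marrow and liver differed in their change was tested directly on the 27 members bright enough in both. At 24 h the marrow change was below the liver change for 3 of 27 (limma adjusted p under 0.05), against 0.186% of all genes called in that direction. Cd8b1 differed by -1.58 ± 0.25, Ccr7 by -1.54 ± 0.25 and Cd2 by -1.36 ± 0.26 (limma adjusted p = 0.00567, 0.00567 and 0.0231). The fitted difference was below 0 for 26 of 27, with a median of -0.71 against 0.0026 over all genes. Without marrow 24 h replicate 2 the count was again 3 and the median -0.52, and without liver 24 h replicate 4 the count was 6. Of 8 B cell markers 2 were called in the same direction, with a median of -1.26, and their part in the Ccr7 and Cd2 differences was not tested. At 48 h 0 passed with limma, where 0.789% of all genes did, and 3 members had an unadjusted p under 0.05, against 12.9% of all genes, again a like share. Cd8b1 came nearest at -0.86 ± 0.25 (limma adjusted p = 0.127), and without marrow 24 h replicate 2 it passed. By group, the median difference at 48 h was -0.72 for the 3 naive genes and 0.36 for the 6 cytotoxic genes.

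At 0 h most members were higher in marrow than in liver. Of 33 tested 27 were higher, against 39.6% of all genes, and 4 were lower, against 40.6% of all genes. The median difference was 2.10, and 0.88 to 2.18 over the alternatives. Cd8a, Dapl1, Pdcd1, Foxp3, Ncr1 and Eomes were kept only through marrow groups, so the filter favoured a higher marrow level for them. With only probes above background on all arrays of every group, 21 members differed in either direction. Nkg7 differed most, with 3.88 in marrow and -1.32 in liver, a difference of 5.20 (limma adjusted p = 5.34e-14). Lef1 at 4.20, Lat at 4.05 and Cd2 at 3.86 followed. For 5 genes that were above background on no liver array at 0 h there is only a bound: at least 6.84-fold for Klrb1c, 3.71-fold for Eomes, 3.51-fold for Cd8a, 1.90-fold for Ncr1 and 1.45-fold for Foxp3. Gzmb at 0.36 and Pdcd1 at 0.46 did not pass (limma adjusted p = 0.259 and 0.522).

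The 4 genes lower in marrow were Cd4 at -4.05, Cd3e at -0.71, Icos at -0.71 and Cd247 at -0.67. The brightest Cd4 probe measured 5.27, 5.20, 5.41 and 5.04 in liver and 1.21, 1.28, 1.05 and 1.17 in marrow at 0 h, with no overlap. It lies at chr6:124814711-124814770 of mm9. A dimmer Cd4 probe had means of -3.42 in liver and -4.49 in marrow, lower in marrow as well, and was above background on 11 of 12 arrays of each tissue. A dimmer Cd3e probe, above background on all arrays, was likewise lower in marrow, at -2.76 against -1.82 in liver, whereas Cd3d and Cd3g, chains of the same complex, were higher there by 2.65 and 1.63. Cd247 was measured by its brightest probe, and some of its other probes were above background on 0 arrays of either tissue. A further dim Cd247 probe had means of -3.52 in liver and -4.91 in marrow at 0 h. It was above background on 10 liver and 3 marrow arrays. What the Cd4, Cd3e and Cd247 probes detect in liver was not tested.

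**Figure D5:**
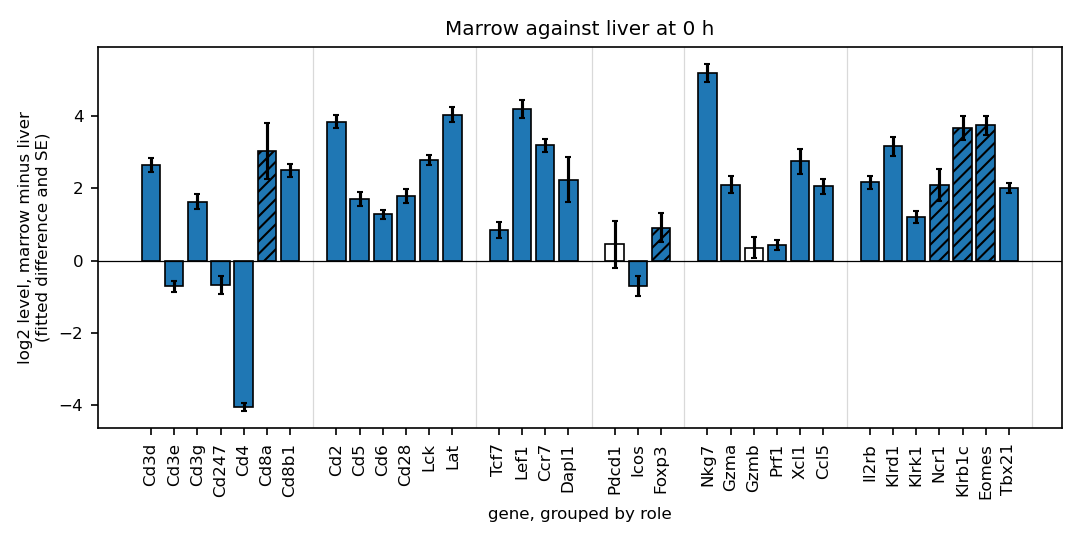
Difference in log2 level between marrow and liver at 0 h for the 33 tested members, grouped by role, as limma's fitted difference ± SE (4 arrays per tissue). Filled bars passed at an adjusted p under 0.05, and hatched bars are genes above background on no liver array, whose bars are not bounds. Bars reach from -4.05 for Cd4 to 5.20 for Nkg7.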

How the data were processed

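Scanner intensity of 24 single-colour Agilent arrays was analysed, 4 per tissue and time. Per the submitters' processing notes the intensity was extracted with Agilent Feature Extraction 10.10.1.1 and, per the file headers, the deposited intensity is background subtracted and detrended within the array. The authors also deposited log2 values with equal quantiles within a tissue, whose making is otherwise not given in the sources used here, with medians of 8.31 in marrow and 7.74 in liver. Each column kept the rank order of its array's median spot signal. They served as an alternative.

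The intensity was converted to log2 and each array's 75th percentile subtracted. The 3671 control spots and outlier spots were left out, and spots of a probe averaged. Probes entered a tissue's fit where at least 1 of its groups had them well above background on each array, and the brightest kept probe stood for its gene. Within a tissue all 3 times entered 1 fit with limma 3.58.1 (R 4.3.3), with Benjamini-Hochberg adjustment over all genes tested and a threshold of 0.05. Differences between tissues used all 24 arrays. The fit was checked on simulated data. Exact permutation of 4 against 4 arrays cannot give a p below 0.0286. A bound ("at least") sets the brighter group's mean against the dimmer group's, with each dim array at no less than its lowest signal above background. Array number limits the precision.

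The members and lists were chosen with earlier results of these data known. Values per array are given for every member called within a tissue and for the member with the smallest p of each role and tissue. Others are given by value or range, and of the further lists up to 3 called genes are named, except 1 that is not reported here. Cd4 and the other genes lower in marrow than in liver were described further after their values were seen. Alternatives covered scaling, background correction, the authors' log2 values, the filter, probes per gene, slide, replicate number, weights for arrays, the variance model, which groups entered, and each array left out. Probe positions are mm9, per the file headers, and exon or untranslated position was not analysed here. The number shared by samples of different times did not pair them: deviations of same-numbered arrays correlated at a median of 0.048 in marrow and 0.031 in liver, not every pair above 0.1. Same-numbered liver and marrow arrays correlated at medians of 0.14, 0.059 and 0.16 at 0, 24 and 48 h, against -0.048, -0.025 and -0.059 for different numbers, but the lowest pair was at 0.0097, so these too were not treated as paired.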

Additional observations from a re-analysis of the deposited data

Results flagged for a closer look

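In 180 groups of 4 arrays (a tested member in a tissue at a time), 11, or 6.11%, had 1 array far from the others by Dixon's test, and chance alone gives about 1 in 20. Cd3d on marrow 0 h replicate 2 was at 0.62, against 0.80 to 0.83 on the other 3. On marrow 24 h replicate 2, the array with liver transcripts, Cd8b1 was at -2.04, against -1.21 to -1.09 on the other 3, and Cd4 at 1.56, against 0.93 to 1.03 on the other 3. At 48 h in marrow, Cd6 on replicate 2 was at -1.29, against -1.01 to -0.98 on the other 3, Tcf7 on replicate 2 at -3.38, against -2.30 to -2.27 on the other 3, and Gzmb on replicate 3 at -2.42, against -3.49 to -3.33 on the other 3. In liver at 24 h, Cd3d on replicate 4 was at -1.98, against -1.39 to -1.26 on the other 3, and Lck on the same array at -1.44, against -1.04 to -0.99 on the other 3. Gzma on replicate 3 was at -0.42, against -0.14 to -0.13 on the other 3, and Cd28 on replicate 1 at -3.58, against -3.66 to -3.65 on the other 3. Ccl5 on liver 0 h replicate 2 was at 0.22, against 0.84 to 0.97 on the other 3.

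Between the 2 tissues 3 members changed differently at 24 h by the interaction test with limma. The marrow change minus the liver change was -1.54 ± 0.25 for Ccr7, -1.58 ± 0.25 for Cd8b1 and -1.36 ± 0.26 for Cd2.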

How the results depend on the processing

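Of 19 member changes followed over every alternative (those called, or of smallest p in their role), 0 turned their direction. Among the other members Lat in marrow at 24 h went from -0.048 to 0.0087 without marrow 24 h replicate 2. With limma 0 members passed under every alternative for the 3 liver comparisons and for marrow at 48 h against 24 h. In marrow at 24 h the count of 6 became 3 without a filter on dim probes and 11 with array weights, and leaving out 1 array gave 1 to 7. At 48 h the count of 1 became 2 with normexp, which lost Pdcd1, 2 with the authors' values, which kept it, 3 with the percentile over bright probes, with the stricter filter, with trend and robust variance or with the 2 groups alone, and 7 with array weights. Leaving out 1 array gave 1 to 5. For the difference between tissues at 24 h the count of 3 became 1 with the groups compared alone, and 2 to 6 without 1 array, and at 48 h the count of 0 became 1 with array weights and 0 to 1 without 1 array. At 0 h 31 members differed between the tissues, 21 to 31 over all alternatives. The causes were not tested.

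With the replicate number as a block (replicate block), 5 members passed in marrow at 24 h, 0 at 48 h and 0 at 48 h against 24 h, 0 in each liver comparison, 6 for the difference between tissues at 24 h, 0 at 48 h, and 31 between the tissues at 0 h. Pdcd1 at 24 h lost its call under 17 of 25 alternatives, Cd3d under 11, Cd8a under 8, Ccr7 and Dapl1 under 1 each and Cd8b1 under 0. Dapl1 and Pdcd1 in marrow and Klrb1c in liver lay near background. With normexp background correction the 24 h change of Dapl1 in marrow was -0.97 and that of Pdcd1 -0.35, and with the authors' values -1.14 and -0.36. Whether low signal accounts for these differences was not tested.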
